A study of Mus musculus with 6 samples.

Results

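The genes described here are the nuclear genes for subunits of the mitochondrial respiratory chain, measured in 3T3-L1 cells with and without knockdown of stomatin. A gene was a member if its symbol began with Nduf, Uqcr, Atp5 or Cox followed by a digit from 4 to 8, or was Sdha, Sdhb, Sdhc or Sdhd, and if the array annotation gave it a transcript cluster of its own and it was protein coding. This rule used names and no measured values. It found 91 genes among 19047 protein-coding genes. By their known place in the chain, 32 were subunits of complex I, 4 of complex II, 8 of complex III, 18 of complex IV and 17 of complex V, 8 were assembly factors of complex I (Ndufaf1 to Ndufaf8), and 4 were paralogs or partners that belong to none of these groups. All 91 entered the test, and 88 had a group mean at or above 5.1, the median of all log2 signals.

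3T3-L1 is a line of mouse fibroblasts that turns into adipocyte-like cells under a hormone cocktail. The shSTOM-1 cells were transduced with a lentivirus carrying 1 short hairpin RNA against Stom, and the control cells with a lentivirus carrying the vector alone, so the control had no hairpin. Both were selected with 3 µg/ml puromycin for 3 days, brought to confluence, given IBMX, dexamethasone and insulin, then insulin, and harvested on day 7. Total RNA from 3 samples a group, labelled clones 1, 2 and 3, was hybridised to 6 Affymetrix mouse transcriptome arrays. The labels do not say whether the clones were derived or cultured apart, so the p-values here rest on a spread among samples that may be no more than technical.

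Stom fell in shSTOM-1 cells. Its log2 signals were 10.57, 10.60 and 10.67 against 13.17, 13.03 and 13.26 in control cells, 5.82-fold lower (limma adjusted p = 1.13e-08). The median log2 signal of an array lay between 5.06 and 5.11, and the number of arrays limits the precision. The deposited values carry no detection calls, so no gene is called absent. All 9 adipocyte markers examined were lower in shSTOM-1 cells, and their summed signal on the log2 scale was 16.0 to 16.5 against 19.4 to 19.5. Slc2a4 (log2 fold change -5.03) and Plin1 (-4.35) fell most among them. All 7 fibroblast markers examined were higher, with sums of 19.4 in each shSTOM-1 sample against 17.8 to 17.9, and Col1a1 (2.39) and Thy1 (2.34) rose most. Pdgfra, planned as a further fibroblast marker, was not among these 7. Of 12 striated muscle markers 0 passed limma in either direction, with sums of 8.62 to 8.68 against 8.63 to 8.65. In bulk RNA, fewer cells of a type and less RNA per cell cannot be told apart, and the part of these shifts in the results below was not tested.

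The respiratory chain passes electrons from NADH and succinate to oxygen and pumps protons across the inner mitochondrial membrane. Complex I oxidises NADH, complex II oxidises succinate, both hand electrons to ubiquinone, complex III passes them on to cytochrome c, and complex IV, cytochrome c oxidase, delivers them to oxygen. Complex V, the ATP synthase, makes ATP as protons flow back through its ring of c subunits. All complexes but complex II also hold subunits encoded by mitochondrial DNA. Mitochondria increase as fat cells mature, and white and brown fat cells differ widely in how many they hold.

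Promoters are shown for genes on which the results below turn: Uqcrc1 and Sdhd, which had the largest falls among the members of complexes III and II, the 3 c-ring genes Atp5g1, Atp5g2 and Atp5g3, the isoform pair Cox7a1 and Cox7a2, and Ndufs4, which did not pass the test. Each is 300 bases on the strand of the gene, 250 before and 50 after its annotated start, from RefSeq (build GRCm38.p6). Their places were chr9:108936398-108936697 (plus strand) for Uqcrc1, chr9:50603800-50604099 (minus strand) for Sdhd, chr11:96075582-96075881 (minus strand) for Atp5g1, chr15:102670998-102671297 (minus strand) for Atp5g2, chr2:73911277-73911576 (minus strand) for Atp5g3, chr7:30183921-30184220 (plus strand) for Cox7a1, chr9:79759804-79760103 (minus strand) for Cox7a2 and chr13:114388045-114388344 (minus strand) for Ndufs4. Capitals mark matches, on either strand, to 4 motifs named for factors known to act on respiratory genes: NRF1 (GCGCANGCGC), GABP (CCGGAAG), ERR (TCAAGGTCA) and YY1 (AAGATGGCG).
Uqcrc1: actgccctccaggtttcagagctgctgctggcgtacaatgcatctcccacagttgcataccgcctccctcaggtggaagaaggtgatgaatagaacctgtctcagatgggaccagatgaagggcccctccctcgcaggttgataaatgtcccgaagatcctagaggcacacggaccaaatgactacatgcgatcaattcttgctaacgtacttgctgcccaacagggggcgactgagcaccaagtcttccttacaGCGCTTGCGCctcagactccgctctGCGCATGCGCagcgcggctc
Sdhd: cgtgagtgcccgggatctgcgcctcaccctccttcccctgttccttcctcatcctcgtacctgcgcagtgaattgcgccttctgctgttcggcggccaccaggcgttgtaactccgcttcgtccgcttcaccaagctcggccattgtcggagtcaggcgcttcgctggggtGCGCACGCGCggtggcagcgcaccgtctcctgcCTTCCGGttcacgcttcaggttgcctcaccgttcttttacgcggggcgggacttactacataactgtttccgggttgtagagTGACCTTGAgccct
Atp5g1: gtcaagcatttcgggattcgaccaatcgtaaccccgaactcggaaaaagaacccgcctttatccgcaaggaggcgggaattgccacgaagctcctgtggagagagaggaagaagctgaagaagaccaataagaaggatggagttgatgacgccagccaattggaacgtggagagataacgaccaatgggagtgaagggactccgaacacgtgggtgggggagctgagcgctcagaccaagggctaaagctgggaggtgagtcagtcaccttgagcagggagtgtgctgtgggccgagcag
Atp5g2: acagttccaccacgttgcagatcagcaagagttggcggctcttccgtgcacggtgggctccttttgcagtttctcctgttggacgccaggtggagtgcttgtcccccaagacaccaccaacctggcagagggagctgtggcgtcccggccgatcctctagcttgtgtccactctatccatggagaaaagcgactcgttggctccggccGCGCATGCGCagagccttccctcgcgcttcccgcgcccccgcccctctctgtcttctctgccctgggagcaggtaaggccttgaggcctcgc
Atp5g3: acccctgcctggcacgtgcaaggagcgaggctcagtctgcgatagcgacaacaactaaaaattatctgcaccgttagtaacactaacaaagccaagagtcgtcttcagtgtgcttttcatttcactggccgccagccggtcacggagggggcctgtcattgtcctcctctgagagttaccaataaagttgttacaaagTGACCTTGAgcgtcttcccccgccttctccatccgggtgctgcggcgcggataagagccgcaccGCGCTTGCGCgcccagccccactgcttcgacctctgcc
Cox7a1: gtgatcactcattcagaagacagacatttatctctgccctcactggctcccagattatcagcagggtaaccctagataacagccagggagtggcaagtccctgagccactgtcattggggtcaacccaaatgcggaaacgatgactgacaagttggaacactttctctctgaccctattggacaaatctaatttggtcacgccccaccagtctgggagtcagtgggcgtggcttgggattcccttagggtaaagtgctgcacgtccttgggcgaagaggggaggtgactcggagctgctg
Cox7a2: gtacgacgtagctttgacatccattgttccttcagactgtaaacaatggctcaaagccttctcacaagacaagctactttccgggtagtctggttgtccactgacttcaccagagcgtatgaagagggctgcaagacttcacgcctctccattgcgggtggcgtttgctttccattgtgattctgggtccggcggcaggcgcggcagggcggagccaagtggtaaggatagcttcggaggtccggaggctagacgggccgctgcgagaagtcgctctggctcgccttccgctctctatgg
Ndufs4: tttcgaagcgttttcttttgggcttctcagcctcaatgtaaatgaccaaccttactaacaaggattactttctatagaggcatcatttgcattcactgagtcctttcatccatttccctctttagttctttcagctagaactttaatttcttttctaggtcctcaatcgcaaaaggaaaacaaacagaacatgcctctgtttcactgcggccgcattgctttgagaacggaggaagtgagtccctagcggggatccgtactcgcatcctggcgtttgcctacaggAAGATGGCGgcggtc

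The Uqcrc1 promoter held 2 NRF1 matches, at bases 256 to 265 and 281 to 290 of the 300. Sdhd held an NRF1 match at bases 172 to 181, a GABP match at 205 to 211 and an ERR match at 287 to 295, none of which overlapped another. Among the c-ring genes, Atp5g2 held an NRF1 match, Atp5g3 an NRF1 and an ERR match, and Atp5g1 none of the 4 motifs. Neither Cox7a1 nor Cox7a2 held a match, and Ndufs4 held a YY1 match. A match is a run of letters and not a measured site, and a missing match says only that these letters are not in the window.

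Promoters were at hand for 74 of the 91 members. The NRF1 motif was in 16 of them (21.6%) and in 7.62% of the 15437 protein-coding genes with a promoter. GABP was in 19 (25.7% against 13.3%), YY1 in 7 (9.46% against 2.22%) and ERR in 2, Atp5g3 and Sdhd (2.70% against 0.324%). At least 1 of the 4 motifs was in 36 members (48.6%, against 20.9% of coding genes). The median log2 fold change was -1.02 in members with an NRF1 match and -1.03 in those without. It was -1.15 with and -0.95 without a GABP match, -0.71 with and -1.04 without a YY1 match, and -1.69 in the 2 members with and -1.03 in those without an ERR match. The members also lay on 19 chromosomes, with at most 9 on any, on chromosome 7, and 3 on the X chromosome.

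Most respiratory chain genes fell with the knockdown. At an adjusted p under 0.05 (limma, Benjamini-Hochberg over all 19047 coding genes), 80 of 91 members (87.9%) were lower and 0 were higher, while 22.7% of all coding genes were lower and 22.2% higher, 44.9% in all. Members have brighter signals than most genes. Among coding genes with a group mean at or above the median of all values 35.2% were lower, and among those whose control mean lay between the quartiles of the members 44.5% were lower. At an unadjusted p under 0.05, 82 members were lower and 0 higher, by limma, and 0 were higher in the linear model without moderation. The median log2 fold change of the members was -1.03, which is 2.04-fold lower, against -0.00 over all coding genes.

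In 80 members every shSTOM-1 array lay below every control array, as it did in 26.4% of all coding genes, and 47 members were at least 2-fold lower, as were 5.61% of all coding genes. A stricter threshold, an adjusted p under 0.001 with a 3-fold change, was met by 12 members, and by 2.69% of coding genes in the lower direction. These were Cox7a1, Uqcrc1, Ndufs1, Sdhd, Uqcrc2, Ndufa9, Uqcrq, Ndufa10, Ndufv1, Sdha, Ndufs3 and Ndufaf4. None of these 12 was a subunit of complex V.

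The members shifted on each shSTOM-1 array. Measured as log2 signal minus the control mean of the gene, the median of the 91 members was -0.91, -1.09 and -1.0 in shSTOM-1 clones 1, 2 and 3, and -0.02, -0.02 and 0.05 in the control clones. Clone 2 gave the lowest of the 3 shSTOM-1 signals in 55 of 91 members, and in 5741 of all 19047 coding genes. It was also the lowest in 8 of the 9 adipocyte markers. Control clone 3 gave the highest control signal in 55 of 91 members, and in 5738 of 19047 coding genes. It was also the highest in 8 of the 9 adipocyte markers. Among the 11547 coding genes with a group mean at or above the median of all values, these counts were 3414 for shSTOM-1 clone 2 and 4566 for control clone 3.

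**Figure D1:**
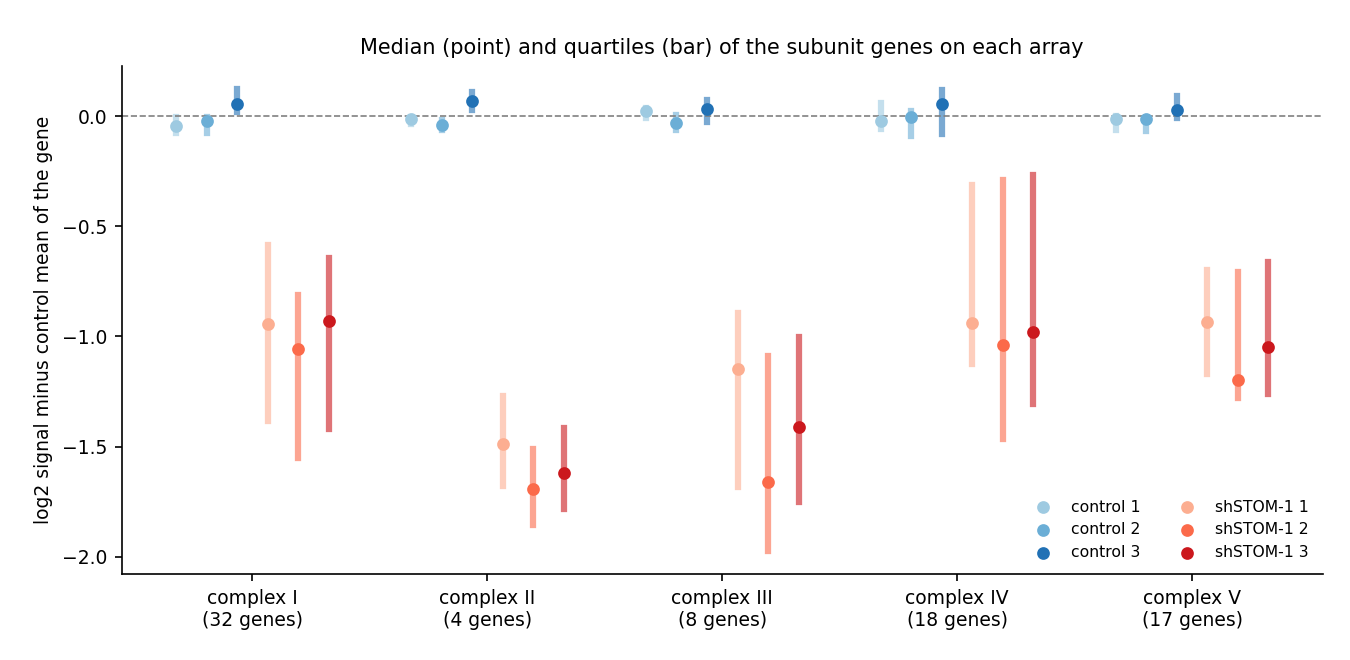
Each point is the median, and each bar the range between the quartiles, of log2 signal minus the control mean of the gene over the subunit genes of 1 complex (x axis) on 1 of the 6 arrays (colours). Control medians lie near 0, the shSTOM-1 medians of complex II lie at -1.49, -1.70 and -1.62, and those of complex I at -0.95, -1.06 and -0.93.

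By complex, the median log2 fold change ran from -1.60 in complex II and -1.37 in complex III to -1.06 in complex V and -0.99 in complexes I and IV. The number lower was 4 of 4 in complex II, 8 of 8 in III, 16 of 17 in V, 30 of 32 in I and 14 of 18 in IV. Without the 7 tissue isoforms of complex IV, 11 of 11 of its genes were lower, with a median of -1.15. The ranges of the complexes overlap, and the order of their medians was not tested. Ndufa4 was counted in complex IV, where its protein sits, and not in complex I, for which it is named. Counted in complex I it would make 31 of 33 lower there, with a median of -1.03.

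**Figure D2:**
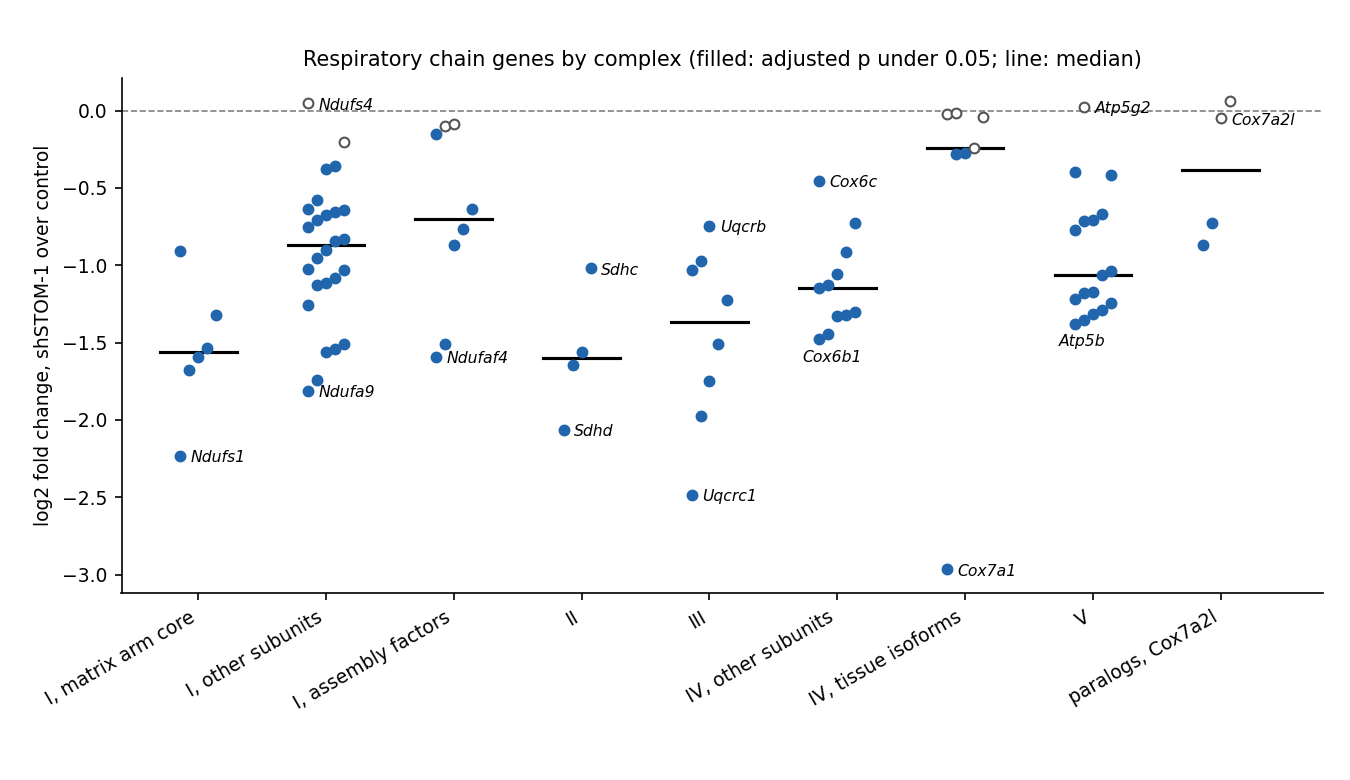
Each point is a member gene, with its log2 fold change (shSTOM-1 over control, 3 arrays each) on the y axis and its complex on the x axis. Filled points had an adjusted p under 0.05 by limma, and lines are medians. Cox7a1 lies lowest at -2.97, and the open points near 0 include Ndufs4, Atp5g2 and Cox7a2l.

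Complex I has a matrix arm, which holds the flavin and the iron-sulphur centres, and a membrane arm, which pumps protons. The core subunits of the matrix arm fell most. All 6 of these members were lower, with a median log2 fold change of -1.56, while 24 of the other 26 subunits were lower with a median of -0.87, a difference that was not tested. Ndufs1, the largest subunit of the matrix arm, had log2 signals of 10.87, 10.75 and 10.81 in shSTOM-1 cells and 13.04, 13.05 and 13.04 in control cells. Samples of a group lay close together, and the groups stood 2.17 apart at their nearest. Ndufs1 was 4.70-fold lower (log2 fold change -2.23, SE 0.05, adjusted p = 7.05e-09), the largest fall in complex I.

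Ndufv1 binds NADH and the flavin FMN. Its signals were 9.87, 9.77 and 9.62 against 11.34, 11.34 and 11.62, a log2 fold change of -1.68 (SE 0.09, adjusted p = 7.00e-07). Ndufv2, the iron-sulphur subunit beside it, had 10.12, 10.02 and 10.25 against 11.68, 11.62 and 11.69, a log2 fold change of -1.53. Ndufs3, in the module that faces ubiquinone, had 9.10, 9.13 and 8.97 against 10.61, 10.65 and 10.71, a log2 fold change of -1.59. These 3 subunits moved by similar amounts, with no overlap of the groups. Ndufs7, which helps form the ubiquinone site, had 10.42, 10.10 and 10.30 against 11.55, 11.58 and 11.65, a log2 fold change of -1.32. Ndufs8, an iron-sulphur subunit on the way to ubiquinone, changed least of the 6, with 11.98, 11.47 and 11.84 against 12.59, 12.58 and 12.84 (log2 fold change -0.91, SE 0.13).

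Among accessory subunits of complex I, those of the membrane arm were lower in 17 of 17 genes (median -0.95) and those of the matrix arm in 6 of 8 (median -0.70). Ndufa9, in the matrix arm, had 12.77, 12.57 and 12.47 against 14.38, 14.40 and 14.47 and was 3.51-fold lower (adjusted p = 1.37e-07). Ndufa10, in the membrane arm, had 12.56, 12.41 and 12.44 against 14.20, 14.20 and 14.23 and was 3.34-fold lower (adjusted p = 2.28e-08). These were the second and the third largest falls in the complex. Ndufb2 had the smallest fall among those that passed, with 7.67, 7.56 and 7.57 against 7.92, 7.94 and 8.02 (log2 fold change -0.36, adjusted p = 0.000438). Ndufab1, the mitochondrial acyl carrier protein, which also serves fatty acid and lipoate synthesis, was 2.18-fold lower.

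The 2 complex I subunits that did not pass both sit in the matrix arm. Ndufs4 had 10.76, 10.73 and 10.77 in shSTOM-1 cells and 10.64, 10.68 and 10.80 in control cells, so that the highest value was in a control sample and the groups overlapped (log2 fold change 0.05, SE 0.05, adjusted p = 0.559). In mice and people, loss of Ndufs4 disturbs complex I and causes a Leigh-like disease. Ndufa7 had 8.49, 8.31 and 8.32 against 8.51, 8.48 and 8.73 (log2 fold change -0.20, SE 0.08, adjusted p = 0.0766). Only 1 shSTOM-1 sample, clone 1, reached into the control range, and without it the adjusted p was 0.0385.

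Assembly factors help build complex I and leave it when it is complete. Of the 8 in the member list 6 were lower, with a median log2 fold change of -0.70. Ndufaf4 had 7.61, 7.89 and 7.83 against 9.45, 9.25 and 9.40 and was 3.01-fold lower (adjusted p = 5.30e-07). Ndufaf1 had 8.53, 8.58 and 8.67 against 10.22, 10.05 and 10.03 and was 2.84-fold lower. These fell most, and Ndufaf7, a methyltransferase, was 1.83-fold lower. Ndufaf5 had the smallest fall that passed, 7.58, 7.57 and 7.60 against 7.72, 7.79 and 7.70 (log2 fold change -0.15, adjusted p = 0.0249), a call lost when any of 4 of the 6 arrays was left out (adjusted p of 0.0534 to 0.0925). Ndufaf2 had 6.01, 6.09 and 6.08 against 6.27, 6.12 and 6.04, and Ndufaf8 had 8.49, 8.37 and 8.34 against 8.41, 8.54 and 8.55. Both overlapped between groups (adjusted p = 0.368 and 0.242).

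Complex II is succinate dehydrogenase, an enzyme shared by the respiratory chain and the citric acid cycle, and all of its 4 genes are nuclear. Sdha, which holds FAD and oxidises succinate, had log2 signals of 11.20, 11.15 and 11.10 in shSTOM-1 cells against 12.78, 12.80 and 12.80 (3.12-fold lower, adjusted p = 1.65e-08). Sdhb, which carries the iron-sulphur centres, had 9.41, 9.05 and 9.25 against 10.69, 10.77 and 10.93 (2.95-fold lower, adjusted p = 1.56e-06). The membrane anchors fell by unlike amounts, a difference that was not tested. Sdhd had 12.08, 11.83 and 11.97 against 14.04, 13.97 and 14.06 and was 4.18-fold lower (log2 fold change -2.06, SE 0.07, adjusted p = 3.36e-08). Sdhc had 11.51, 11.33 and 11.42 against 12.43, 12.35 and 12.54 and was 2.03-fold lower (log2 fold change -1.02, SE 0.07, adjusted p = 2.28e-06). For none of the 4 genes was the gap between the nearest samples of the groups under 0.84.

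Among the complex III members the core proteins changed most. Uqcrc1 had 12.88, 12.76 and 12.68 against 15.25, 15.20 and 15.33 and was 5.61-fold lower (log2 fold change -2.49, SE 0.06, adjusted p = 1.10e-08). Uqcrc2, its partner in the matrix part of the complex, had 12.51, 12.31 and 12.51 against 14.45, 14.38 and 14.43 and was 3.94-fold lower. Uqcrq, an accessory subunit, had 9.11, 8.79 and 9.02 against 10.71, 10.64 and 10.81 and was 3.36-fold lower. All 3 passed the stricter threshold. The Rieske iron-sulphur protein Uqcrfs1, which carries electrons within the complex, was 2.05-fold lower. Uqcrb had the smallest fall, 14.52, 14.76 and 14.78 against 15.47, 15.46 and 15.37 (1.68-fold lower, adjusted p = 3.66e-05). Uqcr10 had the widest spread, with 7.32, 6.36 and 6.91 in shSTOM-1 cells against 8.14, 8.16 and 7.97, and clone 2 was the lowest.

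The electron carriers of this step that have other names were not members: Cyc1, cytochrome c1 of complex III, and Cycs, the soluble cytochrome c. Cyc1 had 10.13, 10.04 and 9.93 against 12.59, 12.38 and 12.68 and was 5.72-fold lower (adjusted p = 3.74e-08). Cycs had 13.20, 12.81 and 13.39 against 16.24, 16.13 and 16.24 and was 8.40-fold lower (adjusted p = 1.29e-07). On the log2 scale these changes were -2.52 and -3.07, beside -2.49 for Uqcrc1. With 4 assembly factors of complex III they form a list in which 5 of 6 were lower and 0 higher.

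Complex IV subunits that have 1 gene, or whose isoform is found in most tissues, were lower in 11 of 11 genes. Cox6b1 had 13.44, 12.78 and 13.14 against 14.60, 14.50 and 14.69 and was 2.78-fold lower. Cox5b had 11.92, 11.41 and 11.85 against 12.99, 13.18 and 13.35 and was 2.73-fold lower. Clone 2 was the lowest shSTOM-1 sample for both. Cox6c changed least of the 11, with 8.72, 8.61 and 8.64 against 9.08, 9.13 and 9.12 (log2 fold change -0.45, adjusted p = 5.81e-05). Ndufa4 had 14.64, 14.45 and 14.63 against 15.57, 15.60 and 15.72 (log2 fold change -1.06). Signals of Cox5b and other genes with processed copies may include RNA from near-identical copies, which the array annotation does not resolve.

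Several complex IV subunits come as pairs, with 1 isoform used in most tissues and another in heart and skeletal muscle, testis or lung. Cox7a1, the muscle isoform of subunit 7A, also marks brown fat cells in mice, and it had the largest fall of all 91 members. Its log2 signals were 6.48, 6.53 and 6.83 in shSTOM-1 cells and 9.27, 9.31 and 10.16 in control cells. Control clone 3 stood above the other control samples, yet the nearest samples of the groups lay 2.44 apart. The fall was 7.82-fold (log2 fold change -2.97, SE 0.22, adjusted p = 4.89e-06), and without control clone 3 the log2 fold change was -2.68. Cox7a2, the isoform of most tissues, had 10.63, 10.23 and 10.28 against 11.63, 11.61 and 11.87 and was 2.5-fold lower.

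Levels of different genes cannot be compared on an array, but the difference between their log2 signals can be followed from sample to sample. Cox7a1 minus Cox7a2 was -4.15, -3.70 and -3.45 in shSTOM-1 cells and -2.36, -2.30 and -1.71 in control cells. The groups did not overlap, and the change was -1.64, so Cox7a1 fell 3.12-fold more than Cox7a2. The exact two-sided permutation p was 0.1, the smallest that 3 against 3 can give, and it was 0.1 for each of the 11 pairs compared here, before any adjustment.

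Cox7a1 was the exception among the tissue isoforms. Cox6a2, a muscle isoform, had 6.13, 6.11 and 6.16 against 6.29, 6.40 and 6.55 (log2 fold change -0.28, adjusted p = 0.00841), and its counterpart Cox6a1 had 15.61, 15.48 and 15.73 against 16.80, 16.76 and 16.65 (-1.13). Cox8b, also a muscle isoform, had 3.74, 4.06 and 3.94 against 4.21, 4.09 and 4.27 (log2 fold change -0.28, adjusted p = 0.0276), below the median of all signals in both groups. Its counterpart Cox8a had 14.34, 14.09 and 14.18 against 15.34, 15.35 and 15.37 (-1.15). The call on Cox8b was lost when any of 4 arrays was left out (adjusted p of 0.0555 to 0.0929) and without moderation (adjusted p = 0.125).

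The remaining tissue isoforms did not pass. Cox4i2, an isoform of lung, had 6.0, 6.23 and 6.15 against 6.19, 6.19 and 6.05, while Cox4i1 had 7.34, 7.02 and 7.05 against 8.42, 8.38 and 8.59 and was 2.51-fold lower. The testis isoforms Cox6b2 (log2 fold change -0.02), Cox7b2 (-0.24) and Cox8c (-0.04) overlapped between groups, with signals of 5.04 to 5.22, 4.08 to 4.54 and 5.18 to 5.60 over the 6 arrays. Their adjusted p was 0.835, 0.0828 and 0.80. Cox7b, the counterpart of Cox7b2, had 11.96, 11.95 and 11.89 against 12.97, 12.86 and 12.72 (log2 fold change -0.92). Ndufa4l2, a paralog of Ndufa4 induced by low oxygen, had 4.34, 4.26 and 4.15 against 4.23, 4.15 and 4.19 (log2 fold change 0.06, adjusted p = 0.481).

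In these pairs the difference between tissue isoform and common isoform moved the other way from Cox7a1 and Cox7a2. It rose by 0.85 for subunit 6A, 0.87 for Cox8b and 1.11 for Cox8c against Cox8a, 1.31 for subunit 4, 1.46 for subunit 6B, 0.68 for subunit 7B and 1.12 for Ndufa4l2 against Ndufa4, each with the exact p of 0.1. The tissue isoforms in these pairs had group means between 3.91 and 6.41, beside a median of 5.1 over all signals. Whether signals this low limited the fall an array could register, and so set the differences, was not tested. Across the 91 members, control signal and log2 fold change had a Spearman rho of -0.50, and of -0.40 over 83 members without the tissue isoforms and Ndufa4l2. Over all 19047 coding genes rho was -0.09. The points share the same 6 arrays, and control signals enter both axes.

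**Figure D3:**
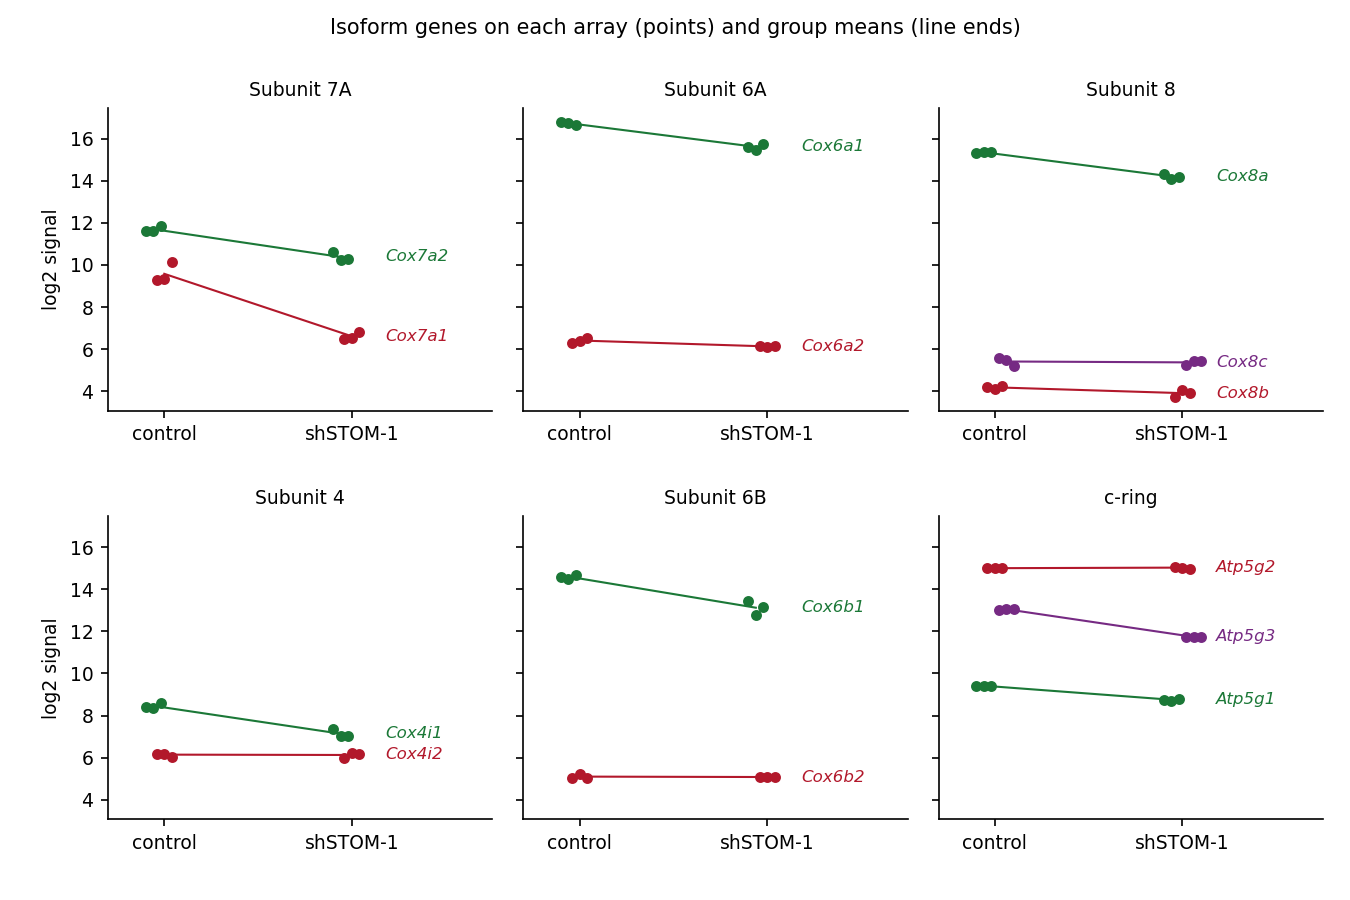
Points are log2 signals (y axis) of isoform genes on each of 3 control and 3 shSTOM-1 arrays, and lines join the group means. Cox7a1 falls more steeply than Cox7a2, the tissue isoforms in the other panels lie under 7 and change little, and in the c-ring panel Atp5g2 stays near 15 while Atp5g3 and Atp5g1 fall.

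Of the complex V genes 16 of 17 were lower. Atp5b, the catalytic beta subunit, had 13.40, 13.38 and 13.37 against 14.75, 14.74 and 14.79 and was 2.60-fold lower (adjusted p = 2.71e-08). Atp5o, of the peripheral stalk, had 9.69, 9.51 and 9.63 against 11.00, 10.90 and 11.00 and was 2.56-fold lower (adjusted p = 1.87e-07). These falls were the largest in the complex. By part, the median log2 fold change was -1.04 over 5 genes of the F1 head and central stalk, -1.0 over 4 of the peripheral stalk and -1.17 over 5 membrane accessory subunits. Atp5e, the epsilon subunit, had the smallest fall, 7.14, 6.76 and 7.01 against 7.28, 7.35 and 7.47 (log2 fold change -0.40, adjusted p = 0.00847). Atp5l was read from a cluster whose identifier places it on chromosome 5, while the gene is on chromosome 9. That cluster gave a log2 fold change of -1.24, and of 2 clusters on chromosome 9 the brighter gave -1.04 and the other, with signals of 4.37, 4.39 and 4.26 against 4.30, 4.27 and 4.23, gave 0.07.

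The 3 c-ring genes encode the same mature c subunit of the rotor ring and differ in their import sequences, and they did not move together. Atp5g3 had 11.75, 11.73 and 11.72 in shSTOM-1 cells against 13.02, 13.06 and 13.07 in control cells and was 2.49-fold lower (log2 fold change -1.32, SE 0.04, adjusted p = 3.40e-08). Atp5g1 had 8.76, 8.71 and 8.78 against 9.42, 9.41 and 9.42 and was 1.59-fold lower (log2 fold change -0.67, SE 0.04, adjusted p = 2.40e-06). Atp5g2 had 15.07, 15.02 and 14.98 against 15.00, 15.00 and 14.99, a log2 fold change of 0.03 (SE 0.05, adjusted p = 0.703). The Atp5g2 groups overlapped, and a second cluster annotated to this gene had 14.89, 14.78 and 14.80 against 14.79, 14.77 and 14.84. The identifier of that second cluster places it on chromosome 7, while the gene is on chromosome 15.

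Atp5g3 minus Atp5g2 was -3.32, -3.29 and -3.26 in shSTOM-1 cells and -1.98, -1.94 and -1.92 in control cells. This difference changed by -1.34, so the ratio of Atp5g3 to Atp5g2 signal was 2.54-fold lower in shSTOM-1 cells, while Atp5g2 itself did not fall. Atp5g1 minus Atp5g2 changed by -0.69 and Atp5g3 minus Atp5g1 by -0.65, both with no overlap of the groups and the exact p of 0.1. Of the c-ring promoters printed above, those of Atp5g2 and Atp5g3 both hold an NRF1 match, and only that of Atp5g3 holds an ERR match. That of Atp5g1 holds none of the motifs searched. Whether these letters bear on the changes was not tested.

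Of the 4 members outside these groups, Cox7a2l, which helps join complexes III and IV in supercomplexes, had 11.63, 11.43 and 11.55 against 11.51, 11.49 and 11.76 (log2 fold change -0.05, SE 0.08, adjusted p = 0.697). It is named for its likeness to Cox7a2, which fell. Ndufb4b and Ndufb4c, named as copies of Ndufb4, were 1.83-fold and 1.65-fold lower, and Ndufa4l2 is given above.

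Genes that serve the chain without matching the member names were read from lists by function. Mitochondrial DNA encodes the remaining subunits. All 5 of its messenger RNAs that had a cluster of their own were lower, but with a median log2 fold change of -0.43. Mitochondrial clusters that name several genes changed less, from -0.10 (ND5 with CYTB) to -0.21 (mt-Rnr2 with ND1). ND2 had 17.63, 17.60 and 17.65 against 18.23, 18.12 and 18.33 (log2 fold change -0.60, adjusted p = 3.68e-05), and COX1 had 17.33, 17.12 and 17.27 against 17.71, 17.71 and 17.93 (-0.54, adjusted p = 0.000409). The signals of ND2, ND3 and COX1 are near the top of the range, where an array can compress differences, and this was not tested. ND6, the dimmest of the 5, had the smallest fall, with 14.01, 13.77 and 13.76 against 14.22, 14.14 and 14.03 (-0.28). COX2 had 15.96, 15.92 and 16.11 against 16.41, 16.27 and 16.41 (-0.37).

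Of the genes for electron entry to ubiquinone from other dehydrogenases 6 of 6 were lower, with a median log2 fold change of -1.26. Etfdh, which passes electrons from fatty acid oxidation to ubiquinone, had 11.03, 11.05 and 11.13 against 12.93, 12.90 and 12.96 (-1.86), and Etfa, a subunit of the flavoprotein that feeds it, had 12.11, 12.05 and 12.21 against 13.72, 13.95 and 13.94 (-1.75). In the synthesis and handling of ubiquinone 8 of 12 genes were lower and 1 was higher. Coq8a fell 7.40-fold, from 9.61, 9.44 and 9.77 in control cells to 6.85, 6.57 and 6.74, and Coq3 fell 6.71-fold, from 11.17, 11.09 and 11.18 to 8.50, 8.38 and 8.32. The gene that rose was Coq10a, with a log2 fold change of 0.45.

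Assembly factors outside the member list were mostly lower. For complex I they were lower in 9 of 10 genes (median -0.62), led by Foxred1 (-2.12) and Acad9 (-1.31), and for complex IV in 12 of 17 (median -0.56), led by Cox15 (-1.83), needed for haem a, and Taco1 (-1.64), a translational activator of COX1. For complex II they were lower in 4 of 4, with the largest falls in Sdhaf1 (-0.56) and Sdhaf3 (-0.37). For complex V, Atpaf2 (-2.04), Tmem70 (-1.24) and Atpaf1 (-0.78) were lower. Atpif1, which inhibits ATP hydrolysis by complex V, was higher, with 8.62, 8.67 and 8.62 against 8.46, 8.44 and 8.49 (log2 fold change 0.17, adjusted p = 0.0114).

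The vacuolar proton pump, a rotary ATPase of lysosomes related to complex V but with other genes, was examined for comparison. Of its 16 genes 7 were lower and 7 higher, with a median log2 fold change of 0.05. Over all coding genes 22.7% were lower and 22.2% higher. Atp6v0e fell (-1.38) and Atp6ap2 rose (1.35). Among 8 regulators of respiratory genes 4 were lower and 1 higher. Of coding genes with a group mean at or above the median of all values, 35.2% were lower. The coactivators Ppargc1b, with 7.13, 6.99 and 7.09 against 10.00, 9.99 and 10.07 (log2 fold change -2.95), and Ppargc1a, with 9.27, 9.29 and 9.50 against 11.01, 11.20 and 11.31 (-1.82), fell most, and the related coactivator Pprc1 rose (0.43, adjusted p = 0.00104). Of the genes for the motif-binding factors examined, Gabpa changed by -0.41 on the log2 scale (adjusted p = 6.68e-05), and Nrf1 (-0.05), Gabpb1 (0.03) and Yy1 (0.03) did not pass. Of 8 markers of brown or beige fat cells 4 were lower and 0 higher by limma, among them Kcnk3 (-3.45) and Elovl3 (-3.19), while the defining marker Ucp1 was at 4.0, 4.03 and 3.90 against 3.93, 4.13 and 4.10. Of 6 macrophage markers 1 was lower (Cd68, -0.72) and 1 higher (Lyz2, 0.58).

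**Figure D4:**
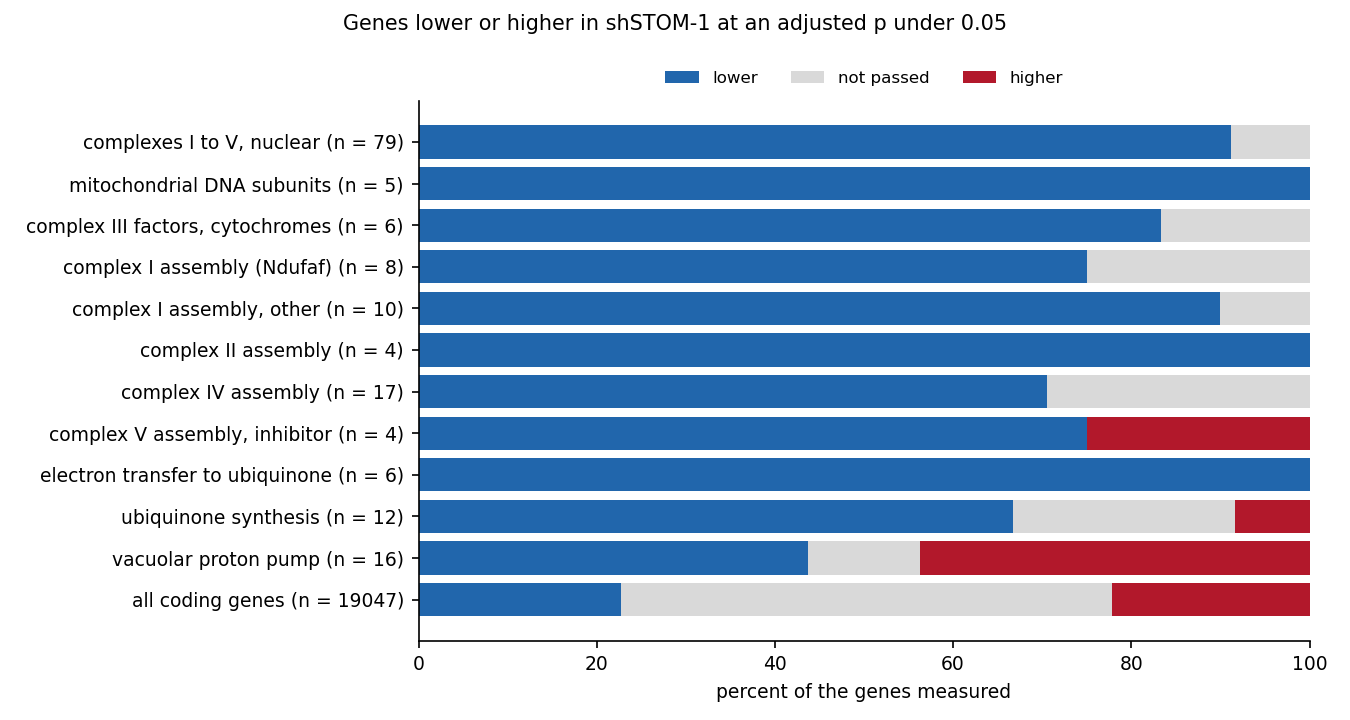
Each bar shows the percent of a list's measured genes (x axis) that were lower, not past the threshold, or higher in the knockdown (limma, adjusted p under 0.05). Of 79 nuclear subunits of complexes I to V 72 were lower, of 16 vacuolar pump genes 7 were lower and 7 higher, and of 19047 coding genes 4329 were lower and 4232 higher.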

How the data were processed

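Total RNA of 3 shSTOM-1 and 3 control samples was measured on 6 arrays. The deposited values are log2 signals of 65956 transcript clusters, which the authors obtained from the scans with the Transcriptome Analysis Console. Their background correction and normalization, and the build of the array, were not given in the sources used here, so how these steps shape low and very high signals is unknown. Clusters were named through the array annotation. Of 32814 annotated clusters 30638 had 1 gene, and 30306 of these matched RefSeq (GRCm38.p6, names, gene types and promoters only). The brightest cluster stood for each of the 204 coding genes with several. Of the rows that met the name rule, 5 with several genes and 7 that were not protein coding were left out.

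The 2 groups were compared by limma 3.58.1 (lmFit, eBayes; R 4.3.3), with p-values adjusted by Benjamini-Hochberg over 19047 coding genes. The prior degrees of freedom were 4.25. Isoform differences were tested by exact permutation. The procedure was run on simulated data with independent noise for each gene and array. Such data cannot test the case of samples that are technical repeats. The members, the 15 lists of other genes and the tests were chosen with earlier results of these data known. Named genes were all Sdh genes, the matrix arm core of complex I, the 3 largest falls and the smallest in each complex and among assembly factors, members that did not pass, isoform and c-ring genes, and the 2 largest changes of each other pathway list. Genes named beyond these were chosen after their values were seen. Tables and plots used Python 3.11.15, pandas 2.3.3 and matplotlib 3.10.9.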

Additional observations from a re-analysis of the deposited data

How the results depend on the processing

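For Atp5l the brighter of 2 clusters on chromosome 9, an alternative chosen after seeing the data, gave -1.04. Between 75 and 81 members were lower, and 0 higher, under quantile normalization (81), median centring, leaving out dim genes, averaging clusters, trend and robust settings, no moderation (77), all genes with a symbol, and an adjusted p under 0.001 (75). Leaving out 1 array in turn gave 78 to 80, with complex I at 30 to 31 lower, complex IV at 13 to 14 and the assembly factors at 5 to 6. The Cox7a1 minus Cox7a2 change ran from -1.80 to -1.44 and that of Atp5g3 minus Atp5g2 from -1.36 to -1.33. Near 0 the sign of members that did not pass turned with 1 array left out: the log2 fold change ran from -0.16 to 0.048 for Cox8c, from -0.05 to 0.04 for Cox6b2, from -0.068 to 0.047 for Cox4i2 and from -0.098 to 0.037 for Cox7a2l. Ndufa7 passed under quantile normalization (adjusted p = 0.0295) and without dim genes (adjusted p = 0.0457), and Cox7b2 passed without control clone 3 (adjusted p = 0.00502). Without moderation Cox6a2 (adjusted p = 0.0529), Cox8b (0.125) and Atp5e (0.0759) did not pass. Their causes were not tested.

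Clone numbers are shared by the groups, and the labels do not say whether same-numbered samples were handled together. Over all coding genes, deviations of same-numbered samples from their group means correlated at -0.04, 0.03 and -0.13. Values near 0 show no strong shared deviation and cannot tell whether the samples were paired. With clone number as a replicate block 80 members were lower and 0 higher by limma, Ndufaf5 no longer passed (adjusted p = 0.0632) and Cox7b2 did (adjusted p = 0.0399). With 3 arrays a group and no detection calls, changes of dim genes such as the testis isoforms are bounded poorly.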

Other observations

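Clusters left out of the member list, because they name several genes or a gene that is not protein coding, gave values of the same kind. Ndufs6 shares a cluster with Ndufs6b, with log2 signals of 10.92, 10.66 and 10.65 in shSTOM-1 cells against 11.64, 11.53 and 11.65 (log2 fold change -0.86). Ndufa11 shares one with Ndufa11b (-0.51), Ndufb4 one with Ndufb4b and Ndufb4c (-0.56), and Cox5b one with Gm11273 (-1.94). In each of these the groups did not overlap. A cluster shared by Atp5g2 and Gm10231 had 10.77, 10.66 and 10.75 against 10.72, 10.68 and 10.69 (log2 fold change 0.03), with overlap of the groups as in the clusters of Atp5g2 alone. The pseudogenes and other non-coding entries were Atp5l-ps1 (-1.47), Atp5l2 (-1.24), Ndufs5-ps (-1.05), Ndufs6b (-0.85), Atp5c1-ps (-0.82), Ndufa11b (-0.53) and Uqcrh-ps1 (-0.46). All lay lower in every shSTOM-1 sample than in any control sample, as did 26.4% of all coding genes. Clusters of such copies may read RNA of the member genes they resemble, which was not tested, so they are not separate observations. Mitochondrial clusters that name several genes had log2 fold changes of -0.10 (ND5 with CYTB) to -0.21 (mt-Rnr2 with ND1), at signals of 18.8 to 19.5.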
